A study of Mus musculus with 50 samples.

Results

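Respiratory complex I subunits encoded in the nucleus were followed through 50 libraries of mouse left ventricle. Members were the genes whose symbol is Nduf followed by a, b, c, s or v and a digit, with Ndufab1 added. Assembly factors (Ndufaf) and symbols with the ending -ps were left out, and a member had to reach 1 FPKM in 5 or more of the libraries. FPKM is the number of fragments of a gene after division by its length and by the size of the library. Of 41 symbols that fit the name rule, 40 passed, out of 11628 genes tested. The symbol that did not pass, Ndufa11b, reached at most 0.0775 FPKM in any library. Nearest above the threshold was Ndufs6b, with an FPKM of 1 or more in 31 libraries, and next came Ndufb2, which passed in all 50. The 40 members comprised 7 core subunits, 29 accessory subunits, Ndufa4 and its paralogue Ndufa4l2, and the 2 processed pseudogenes Ndufb4c and Ndufs6b.

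All mice were 40 weeks old and of the C57BL/6J background. The transgenic mice (Tg) overexpressed LARP6, an RNA-binding protein, in their cardiomyocytes, and the WT mice were their littermates without the transgene. The promoter of the transgene and the number of founder lines were not given in the sources used here. Implanted pumps delivered either sterile saline or the vasoconstrictor peptide angiotensin II, called Ang II here, for 21 days. The rate of Ang II was 1000 ng/kg/min. There were 11 WT saline (5 females, 6 males), 14 WT Ang II (7 females, 7 males), 12 Tg saline (6 females, 6 males) and 13 Tg Ang II (7 females, 6 males) libraries. The comparisons ask how the transgene altered the ventricle, and whether it altered the response to Ang II.

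Complex I (NADH:ubiquinone oxidoreductase) is the entry point for electrons from NADH into the respiratory chain of the inner mitochondrial membrane. Its matrix arm takes electrons from NADH at a flavin, passes them along iron-sulfur clusters and hands them to ubiquinone. Its membrane arm pumps protons that drive ATP synthesis. The catalytic core is conserved from bacteria: part of it is encoded in the nucleus and forms the matrix arm, and the rest, the proton-pumping ND subunits, is encoded in mitochondrial DNA. Accessory subunits surround the core and are needed for its assembly and stability. Cardiac muscle is among the tissues richest in the complex.

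Total counts per library ran from 53877439 to 91579342, of which the members took 0.444% to 0.722%. Mean counts per library ranged from 7784 to 43389 for the core subunits and from 768 to 14920 for the 28 members with a coding sequence under 600 bases, given as raw counts. Levels below are scaled FPKM: the authors' FPKM after division by each library's own factor, taken as a median of ratios over genes. They are compared between groups and not between genes. Larp6 itself lay between 444 and 1631 scaled FPKM in the 25 Tg libraries and between 5.61 and 63.7 in the WT libraries other than library 329. Library 329 is labelled a WT male given Ang II (replicate 5) but had 1004 and a column with the letters of a transgenic mouse. The column of library 847, labelled a Tg male given Ang II (replicate 6, 1119 scaled FPKM), carried the letters of a wild type. Both were kept under their labels, and the main counts are given without them too. Library 965, replicate 6 of the Tg saline males, stood apart in the members: it had the highest level of the 12 Tg saline libraries in 34 of the 40. Results are therefore given with and without it.

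RefSeq promoter windows on GRCm38.p6 were matched by symbol for 33 of the 40 members. Each window covers 250 bases before to 50 bases after the annotated start site. Nuclear respiratory factor 1 (NRF-1) is a well-known activator of nuclear genes for mitochondrial proteins, and the inner letters of its palindromic site, CGCANGCG, were searched on both strands. They were found in the windows of 10 members, 30.3% of those with a window, against 9.2% of all 27025 genes. The 4 windows of members that recur below are shown from 100 bases before to 30 bases after the start site, 5′ to 3′ on the gene's strand, with the NRF-1 letters in capitals. Ndufa11 is the member called higher in Tg, Ndufa8 and Ndufb4 are called lower in 1 or the other comparison of genotypes, and Ndufs6 is among the members far higher in library 965 than in the other Tg saline libraries.
Ndufa11 (chr17:56717662-56717791, plus strand): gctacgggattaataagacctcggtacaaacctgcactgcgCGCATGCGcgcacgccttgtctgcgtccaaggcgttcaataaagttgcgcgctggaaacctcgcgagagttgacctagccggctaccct
Ndufa8 (chr2:36049309-36049438, minus strand): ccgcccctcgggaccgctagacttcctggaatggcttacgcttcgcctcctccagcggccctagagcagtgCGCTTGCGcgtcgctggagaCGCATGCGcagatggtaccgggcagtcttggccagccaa
Ndufb4 (chr16:37654339-37654468, minus strand): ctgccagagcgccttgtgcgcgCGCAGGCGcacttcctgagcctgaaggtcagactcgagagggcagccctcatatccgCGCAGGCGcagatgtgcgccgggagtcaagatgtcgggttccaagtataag
Ndufs6 (chr13:73328453-73328582, minus strand): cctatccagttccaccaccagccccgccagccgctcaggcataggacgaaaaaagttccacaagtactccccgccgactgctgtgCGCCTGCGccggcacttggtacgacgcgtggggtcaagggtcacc
In Ndufa11 the match lay 59 to 52 bases before the start site and reads the same on both strands, as does 1 of the 2 in Ndufa8. None of the 10 members with NRF-1 letters was a core subunit. The letters AAGATGGCG of the factor YY1 were in the windows of Ndufs7, Ndufa9, Ndufc1, Ndufs4 and Ndufs6, which is 15.2% of members against 1.6% of all genes. All 5 YY1 matches lay between 23 and 44 bases after the start site. AAGGTCA for the estrogen-related receptors, CCGGAAG for ETS factors and GGGCGG for Sp1 were also searched on both strands. They were found in 9.1%, 12.1% and 45.5% of members with a window, against 5.4%, 9.9% and 38.2% of all genes. One ETS match and 1 Sp1 match, both in Ndufs3, shared bases. A match is a description of letters only.

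In hearts on saline, every one of the 7 core subunits was lower in Tg than in WT, with changes of -12.9% in Ndufs1 to -19.0% in Ndufs7. Over the 40 members, 10 were lower and 1 was higher, with a median log2 fold change of -0.07. Over all genes tested, 40.6% were called in this comparison, 20.2% as lower and 20.4% as higher, and the median log2 fold change was 0.00. The members' count called lower was thus near the background. Without library 965, 20 members were lower and 0 were higher, with a median of -0.17, while 19.4% of all genes were called lower, 18.8% higher and 38.2% in either direction. A call here is an adjusted p under 0.05 from edgeR's quasi-likelihood test with Benjamini-Hochberg adjustment over all 11628 genes.

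The electron-input end of the core comprises Ndufv1, which binds NADH and the flavin, and the iron-sulfur subunits Ndufv2 and Ndufs1. Ndufv1 ranged from 135 to 160 scaled FPKM (median 142) in the 11 WT saline hearts and from 107 to 136 (median 120) in the 12 Tg saline hearts. The ranges met only at their edges, with 11 of 12 Tg hearts under the lowest WT heart, and the log2 fold change was -0.26 ± 0.05 (SE, adjusted p = 3.1e-05, edgeR). Ndufv2 lay at 113 to 133 (median 119) in WT and 85.4 to 122 (median 101) in Tg, where 10 of 12 hearts were under every WT heart. Its log2 fold change was -0.26 ± 0.05 (edgeR adjusted p = 3.67e-05). For Ndufs1, WT hearts had 49.1 to 66.3 (median 59.4) and Tg hearts 47.6 to 56.9 (median 51.5). These ranges overlapped more, with 4 of 12 Tg hearts below the lowest WT heart but all 12 below the WT median, and the log2 fold change was -0.20 ± 0.04 (edgeR adjusted p = 0.000303).

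The ubiquinone end of the core includes Ndufs3, and Ndufs7 and Ndufs8, which carry the last iron-sulfur clusters before ubiquinone. Ndufs7 had the largest fall of any called member, from 81.6 to 102 scaled FPKM (median 87.4) in WT to 56.1 to 85.6 (median 75.4) in Tg, with 11 of 12 Tg hearts under every WT heart. That is a log2 fold change of -0.30 ± 0.06 (edgeR adjusted p = 4.41e-05). Ndufs8 went from 80.3 to 98.2 (median 85.6) in WT to 67.6 to 87.3 (median 75.7) in Tg, a log2 fold change of -0.21 ± 0.05 (edgeR adjusted p = 0.000505). Ndufs3 lay at 63.5 to 83.7 (median 72.7) in WT and at 50.8 to 84.4 (median 59.3) in Tg. Its highest Tg heart was library 965, and the next had 71.2. The log2 fold change of Ndufs3 was -0.24 ± 0.06 (edgeR adjusted p = 0.00111).

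**Figure D1:**
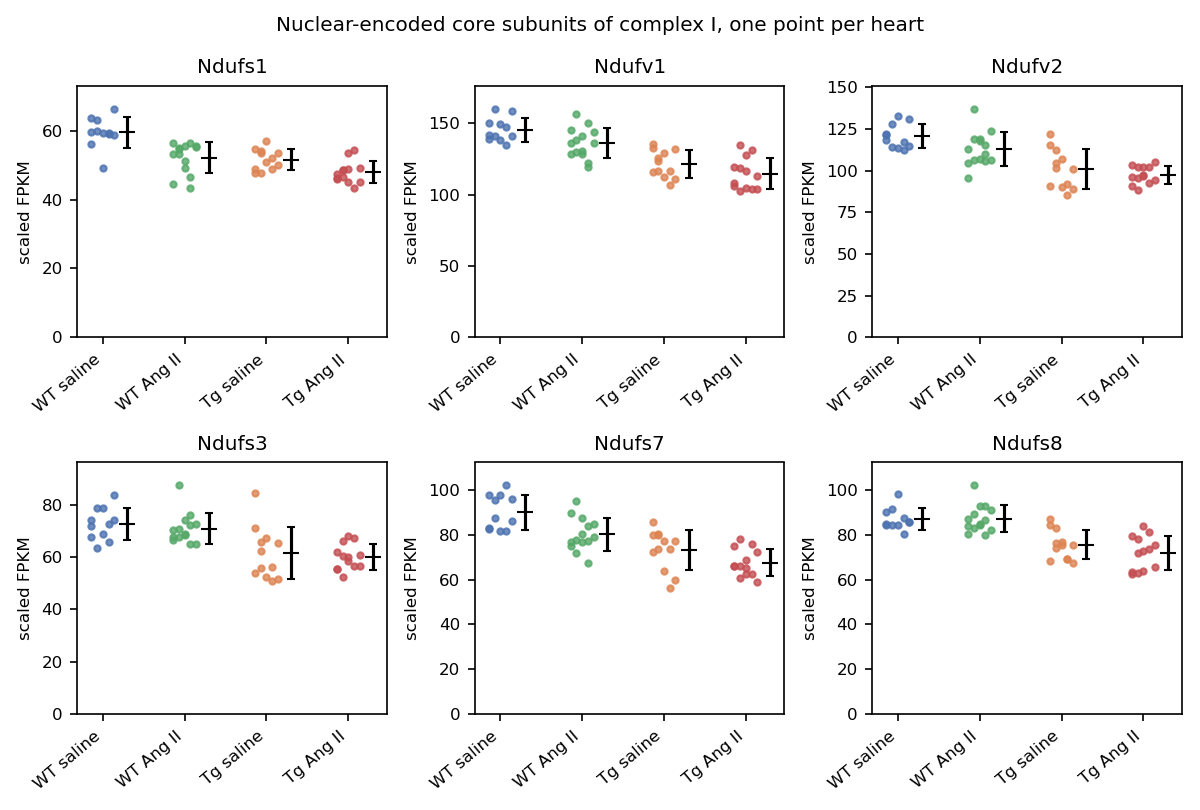
Levels of 6 of the nuclear-encoded core subunits in scaled FPKM (y axis, from 0) for the 4 groups (x axis), with 1 point per heart and, beside the points, the mean and SD. At least 11 Tg hearts of each treatment lie below the WT median of that treatment in each panel, and the groups overlap least under saline in Ndufv1 and Ndufs7, where 11 of 12 Tg saline hearts are under every WT saline heart.

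Among the 29 accessory subunits, 3 were lower and 1 was higher in Tg on saline. Both counts were below the shares of all genes, 20.2% called lower and 20.4% called higher. Ndufa9, an NAD(P)H-binding subunit beside the ubiquinone site, had 114 to 146 scaled FPKM (median 123) in WT and 92.3 to 127 (median 107) in Tg. Its log2 fold change was -0.23 ± 0.04 (edgeR adjusted p = 4.84e-05), with 8 of 12 Tg hearts below the WT range. Ndufa10, a membrane-arm subunit with the fold of a nucleoside kinase, had 105 to 119 (median 114) in WT and 83.3 to 112 (median 99.5) in Tg. Here 10 of 12 Tg hearts were under the WT range, and the log2 fold change was -0.20 ± 0.04 (edgeR adjusted p = 3.1e-05). Ndufa8, a subunit on the intermembrane-space side with disulfide bonds, was at 196 to 252 (median 209) in WT and 155 to 223 (median 192) in Tg, a log2 fold change of -0.15 ± 0.05 (edgeR adjusted p = 0.0146). The ranges overlapped, with 6 of 12 Tg hearts below the lowest WT heart.

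The member called higher was Ndufa11, a membrane-arm subunit at the contact with complex III in respiratory supercomplexes. It had 81.1 to 111 scaled FPKM (median 94.9) in WT saline and 80.3 to 207 (median 106) in Tg saline hearts. The value of 207 is library 965, and the next Tg heart had 119. With all libraries the log2 fold change was 0.24 ± 0.09 (edgeR adjusted p = 0.0277), and without library 965 it was 0.14 ± 0.07 (adjusted p = 0.118, edgeR), so the call ended.

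Leaving out library 965 added 8 accessory subunits, Ndufa4l2 and the pseudogene Ndufb4c to the members lower on saline. The added subunits were Ndufs4 and Ndufs6 in the matrix arm, Ndufa3 and Ndufa13 (also known as GRIM-19) near the joint of the arms, and Ndufb4, Ndufb8, Ndufb9 and Ndufb10 in the far membrane arm. Ndufb10 had the smallest adjusted p among the additions. It had 145 to 218 scaled FPKM (median 177) in WT, 123 to 171 (median 145) in the 11 other Tg saline hearts and 343 in library 965. Its log2 fold change was -0.13 ± 0.10 (edgeR adjusted p = 0.306) with that library and -0.26 ± 0.07 (adjusted p = 0.00202, edgeR) without it. Ndufs6, a zinc-binding subunit added late in assembly, went from a log2 fold change of 0.06 ± 0.13 to -0.19 ± 0.07 (edgeR adjusted p = 0.766 and 0.0373). The 7 core subunits, Ndufa8, Ndufa9 and Ndufa10 were called lower either way.

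**Figure D2:**
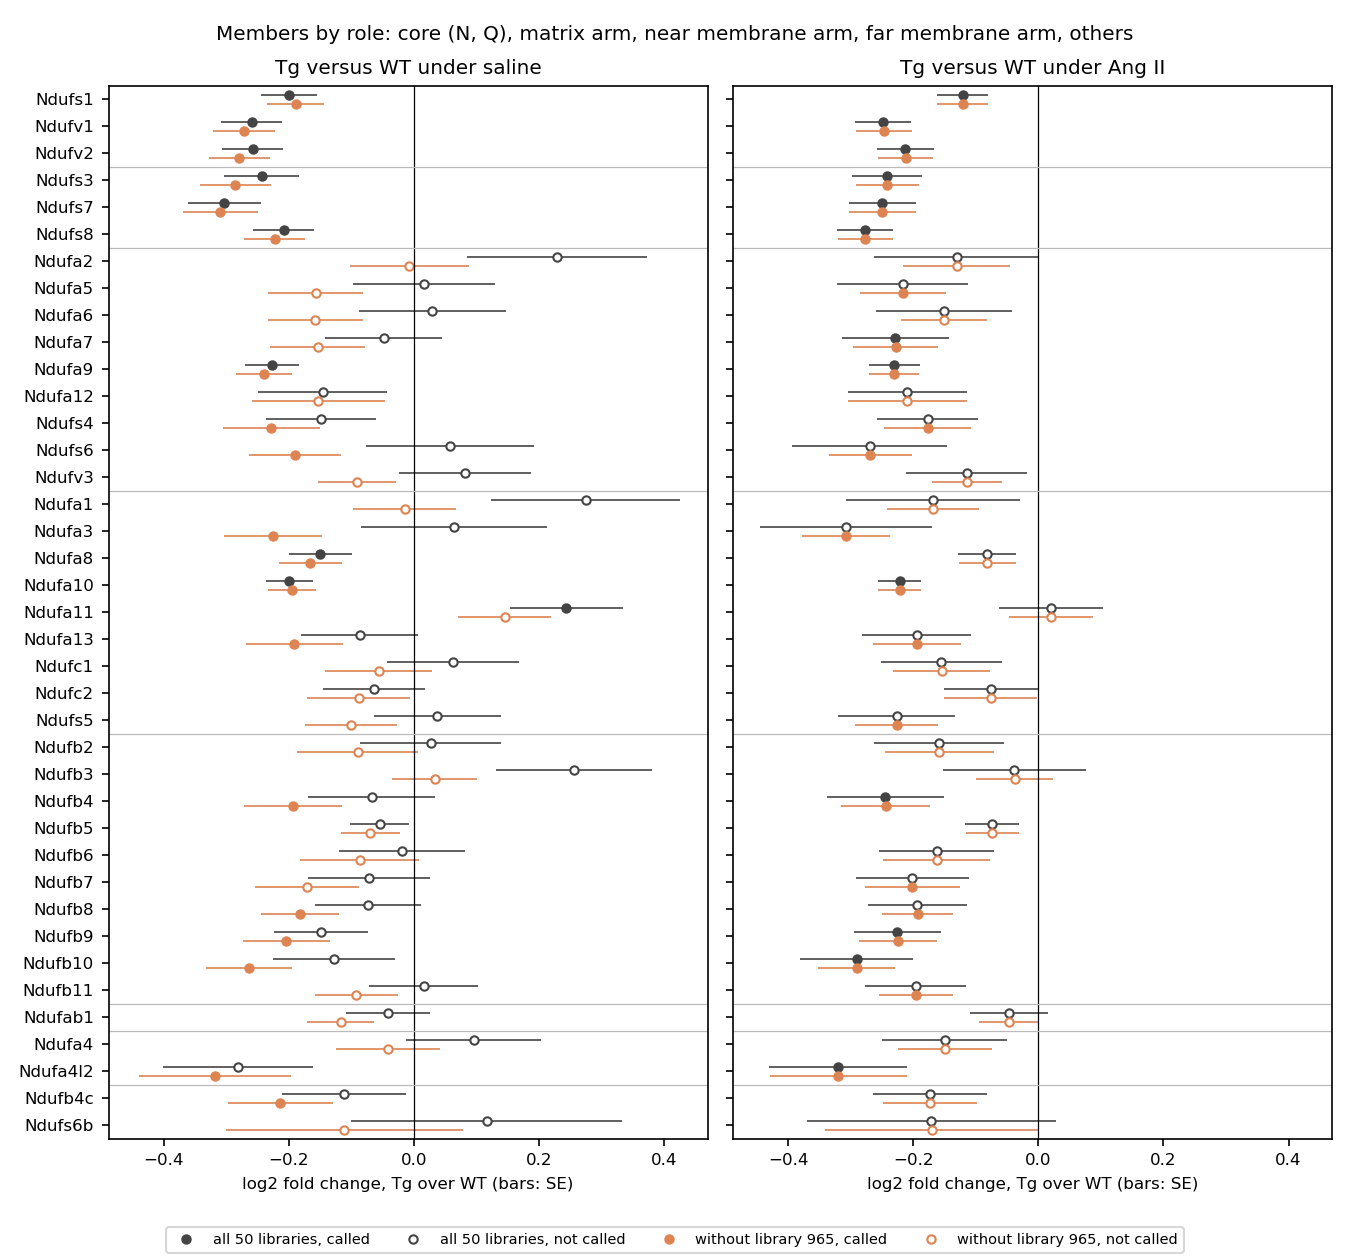
Log2 fold change of Tg over WT (x axis, bars are SE) for 39 of the 40 members (y axis, grouped by role) under saline and under Ang II, with all 50 libraries and without library 965; filled points are called at an adjusted p under 0.05. The core subunits at the top lie at -0.20 to -0.30 under saline with all libraries, whereas Ndufa11 was called higher there only with library 965 included.

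Under Ang II, 14 members were lower in Tg than in WT and 0 were higher, with a median log2 fold change of -0.20. Of all genes tested, 32.8% were called here, 16.4% as lower and 16.4% as higher, with a median of -0.01. Without library 965, 23 members were lower and 0 higher, against 33.6% of all genes called, 16.9% lower and 16.7% higher. That library is in neither group of this comparison, but all groups share one estimate of spread: the log2 fold change of Ndufb10 was -0.29 with and without it, and its SE was 0.09 with it and 0.06 without. Without libraries 329 and 847 the count was 12, against 16.7% of all genes called lower. All 7 core subunits were among the 14, at log2 fold changes of -0.12 to -0.28, and 9 members, the core with Ndufa9 and Ndufa10, were lower under both treatments.

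Ndufs8 had 80.1 to 102 scaled FPKM (median 85.8) in the 14 WT Ang II hearts and 62.6 to 83.8 (median 72.9) in the 13 Tg Ang II hearts. Of the 13 Tg hearts, 11 were under every WT heart, and the log2 fold change was -0.28 ± 0.04 (edgeR adjusted p = 3.72e-06). Ndufa10 had the smallest adjusted p (2.29e-06, edgeR), at 107 to 123 (median 114) in WT and 85.9 to 113 (median 96.6) in Tg, a log2 fold change of -0.22 ± 0.03. For this gene 12 of 13 Tg hearts were under the WT range. Ndufv1 was at 119 to 156 (median 136) in WT and 103 to 135 (median 113) in Tg, a log2 fold change of -0.25 ± 0.04 (edgeR adjusted p = 2.82e-05). Ndufa9 had 109 to 143 (median 121) in WT and 94.1 to 118 (median 103) in Tg, a log2 fold change of -0.23 ± 0.04 (edgeR adjusted p = 1.7e-05). In all 4 of these members, each of the 13 Tg hearts was below the WT median, and 9 to 12 of them were below the lowest WT heart.

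Other core subunits moved the same way. Ndufs7 had 67.4 to 95.1 scaled FPKM (median 78.4) in WT Ang II and 58.9 to 78.2 (median 66.2) in Tg Ang II hearts, a log2 fold change of -0.25 ± 0.05. Ndufs3 had 64.8 to 87.4 (median 69.5) and 52.3 to 68.0 (median 60.1), a log2 fold change of -0.24 ± 0.06, with 10 of 13 Tg hearts under the WT range. Ndufv2 had 95.7 to 137 (median 111) and 88.2 to 105 (median 96.7), a log2 fold change of -0.21 ± 0.05. Ndufs1 was the least changed of the core, from 43.4 to 56.5 (median 53.9) in WT to 43.2 to 54.3 (median 47.3) in Tg, with a log2 fold change of -0.12 ± 0.04 (edgeR adjusted p = 0.0187). Its ranges overlapped almost fully, although 12 of 13 Tg hearts were below the WT median.

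Of the 29 accessory subunits, 6 were lower under Ang II, near the 16.4% of all genes called lower. They were Ndufa7 and Ndufa9 in the matrix arm, Ndufa10, and Ndufb4, Ndufb9 and Ndufb10 in the far membrane arm. Ndufb10 lay at 148 to 215 scaled FPKM (median 176) in WT and 118 to 188 (median 142) in Tg, a log2 fold change of -0.29 ± 0.09 (edgeR adjusted p = 0.0103), with 9 of 13 Tg hearts under the WT range. Ndufa4l2, a paralogue of Ndufa4 known for its induction in low oxygen, had the largest log2 fold change, -0.32 ± 0.11 (edgeR adjusted p = 0.0212). It had 6.68 to 13.5 (median 10.4) in WT and 6.22 to 10.9 (median 8.2) in Tg, and the ranges overlapped. Ndufa3, the next largest, was at 23.0 to 39.1 (median 30.3) and 20.5 to 29.6 (median 22.2), with a log2 fold change of -0.31 ± 0.14 (edgeR adjusted p = 0.0811) over all libraries and -0.31 ± 0.07 (adjusted p = 0.000614, edgeR) without library 965. Ndufa4, counted today as a complex IV subunit, was not called in either comparison of genotypes.

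In WT hearts, 3 members were lower with Ang II than with saline and 0 were higher, all 3 of them core subunits, with Ndufs1 and Ndufs7 among them. Over all genes, 18.6% were called and 8.87% were called lower, so 3 of 40 is near the background, and the members' median log2 fold change was -0.00. Ndufs1 fell from 49.1 to 66.3 scaled FPKM (median 59.4) under saline to 43.4 to 56.5 (median 53.9) under Ang II, with all 14 Ang II hearts below the saline median. Its log2 fold change was -0.18 ± 0.04 (edgeR adjusted p = 0.00193). The change in Ndufs7 was -0.17 ± 0.06 (edgeR adjusted p = 0.0267). The ranges of Ndufs7 overlapped between treatments, and it went from 81.6 to 102 under saline to 67.4 to 95.1 under Ang II. Without library 779 (replicate 7 of the WT Ang II females) Ndufs1 was the 1 member called, at -0.17 (adjusted p = 0.0044, edgeR). Without libraries 329 and 847, 2 members were called, Ndufs1 and Ndufs7, against 7.37% of all genes called lower. None of the 29 accessory subunits was called.

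In Tg hearts, Ang II against saline gave 0 calls among the members by edgeR, against 8.93% of all genes, and 0 without library 965, against 7.09%. By edgeR 10 members had an unadjusted p under 0.05, and 1 had it without library 965. DESeq2 called 1, Ndufa3, with library 965 included, against 10.3% of all genes. The members' median log2 fold change was -0.11 with library 965, a saline heart, and -0.04 without it. Ndufa3 ranged from 20.6 to 32.5 scaled FPKM in the other 11 Tg saline hearts, had 114 in library 965, and ranged from 20.5 to 29.6 in Tg Ang II hearts. Its log2 fold change was -0.42 ± 0.14 (edgeR adjusted p = 0.0556) with library 965 and -0.13 ± 0.07 (edgeR adjusted p = 0.331) without it. The core subunits lay between -0.12 for Ndufs7 and -0.03 for Ndufs3, none of them called.

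The response to Ang II in Tg minus that in WT was called for 0 members by edgeR, and for 0.043% of all genes, or 0 and 0.0172% without library 965. By edgeR 1 member, Ndufa1, had an unadjusted p under 0.05, DESeq2 called 0, and the median difference was -0.12 with library 965 and -0.03 without it. Ndufa1 differed by -0.44 ± 0.21 (edgeR adjusted p = 0.491) with library 965 and by -0.15 ± 0.11 (edgeR adjusted p = 0.765) without it. Over all libraries the core subunits differed by -0.07 for Ndufs8 to 0.08 for Ndufs1. A response that differs between the genotypes was therefore not shown for any member, which does not show that the responses were equal. With all libraries, the core's groups were ordered WT saline, WT Ang II, Tg saline, Tg Ang II by mean level, apart from Ndufs8, whose means in WT saline (87.1 ± 4.80 SD, n = 11) and WT Ang II (87.3 ± 6.02 SD, n = 14) differed by less than either SD. Without library 965 Ndufs3 left this order too, with 59.3 ± 7.23 (SD, n = 11) in Tg saline and 59.9 ± 4.87 (SD, n = 13) in Tg Ang II. For Ndufs1 the neighbours WT Ang II (52.2 ± 4.49 SD, n = 14) and Tg saline (51.5 ± 3.01 SD, n = 12) also lay within their SDs. Other neighbours did so too, for example Tg saline (101 ± 11.7 SD, n = 12) and Tg Ang II (97.4 ± 5.20 SD, n = 13) in Ndufv2. The order is therefore one of means, and edgeR called Ang II against saline for 3 core subunits in WT and 0 in Tg.

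Between the sexes, Ndufa9 was the 1 member called, lower in females, against 4.42% of all genes called and 2.56% called lower. Its mean was lower in females than in males in each of the 4 groups, for example 122 ± 8.12 (SD, n = 5) against 132 ± 9.41 (SD, n = 6) scaled FPKM in WT saline, and 101 ± 7.43 (SD, n = 6) against 117 ± 8.76 (SD, n = 6) in Tg saline. The log2 fold change was -0.12 ± 0.03 (edgeR adjusted p = 0.0113). Of the 40 members, 39 had a negative log2 fold change, with a median of -0.11, or -0.06 without library 965, which is male. Within females, Tg against WT on saline called 10 members lower, 7 of them core subunits, against 13.6% of all genes called lower. Within males it called 5 lower, 3 of them core subunits, and 4 higher, against 9.96% and 12% of all genes. Ndufs3, Ndufs7, Ndufs8 and Ndufv2 were the core subunits not called in males. Without library 965 males gave 7 lower, 5 of them core subunits, and 0 higher, against 7.4% of all genes called lower. Under Ang II, females gave 6 lower, 4 of them core subunits (9.63% of all genes lower). Males gave 9 lower, 6 of them core subunits (8.78%), or 19 without library 965 (9.44%). Within 1 sex, counts without library 965 were made for males only, although all groups share one estimate of spread. The 19 can therefore not be set against the females' 6. No member's genotype difference was called as different between the sexes under either treatment. The members' lowest edgeR adjusted p was 0.874 under saline and 0.598 under Ang II. Of all 11628 genes, 0 were called in either test, so the absence of calls is not particular to the members. By edgeR 13 members had an unadjusted p under 0.05 for it under saline and 1 under Ang II. The share of all genes with such a p was not computed. These tests between the sexes included library 965, a Tg saline male, and were not made without it.

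Library 965 differed from the other Tg saline hearts more in the small subunits than in the core. Relative to the WT saline mean, its median member was 0.83 higher on the log2 scale, while the other 11 Tg saline hearts lay between -0.47 and 0.06. Its 28 members with under 600 coding bases had a median of 0.95, and its core subunits a median of -0.10. It held the highest level of all 50 libraries in 26 members. Ndufa1, a one-helix subunit of the membrane arm, had 220 scaled FPKM there and at most 65.5 in another Tg saline heart. Ndufs6 had 176 there and at most 56.7 elsewhere in the group. Ndufs1, by contrast, had 48.8 in library 965, inside the range of the others, whose highest was 56.9. In 20 members it exceeded the mean of the other Tg saline hearts by more than 1 on the log2 scale, and 17 of these had under 600 coding bases. Ndufv3, with a longest annotated coding sequence of 1404 bases, was also high in it, by 1.46. The small subunits Ndufa12 and Ndufc2 differed less, by 0.11 and 0.34.

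**Figure D3:**
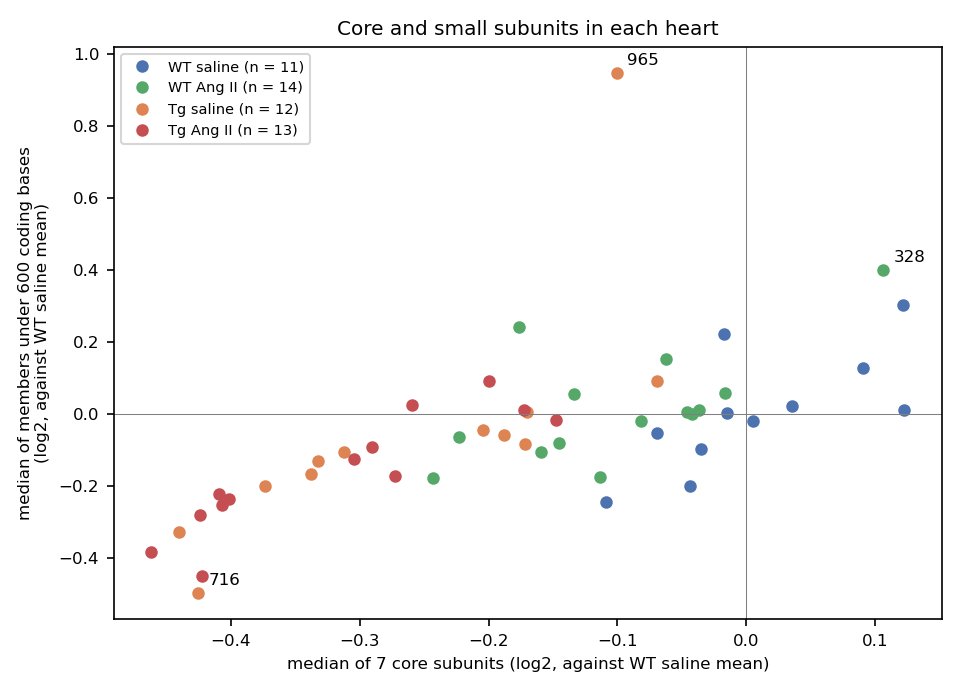
Each point is a heart, placed by the median of its 7 core subunits (x axis) and of its 28 members under 600 coding bases (y axis), both as log2 differences from the WT saline mean. Library 965 stands at 0.95 on the y axis and -0.10 on the x axis, away from the other hearts, library 716 is the lowest Tg saline heart at -0.50, and library 328 is the highest WT Ang II heart at 0.40.

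The same library also stood apart outside the members. Genes under 600 coding bases that are neither members nor subunits of complexes II to V, 1367 in all, were 0.34 higher on the log2 scale than the 8883 longer ones in it, relative to their means. The next library, 329, had 0.22, and the lowest had -0.18. Library 965 also had the lowest Larp6 level of the Tg hearts. Its number of genes at an FPKM of 1 or more, 9832, was the lowest but not far apart. Library 778, a WT Ang II male, had 9941, and the others reached up to 11109. Over all genes tested with under 600 coding bases, 417 of 1423 were called higher and 144 lower in Tg on saline, and without library 965 these were 332 and 164. With each library's shift as a covariate, an alternative chosen after seeing the data, 33 members were lower under saline and 31 under Ang II, and 0 were higher in either. In the same fit 18.2% and 18.5% of all genes were called lower.

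**Figure D4:**
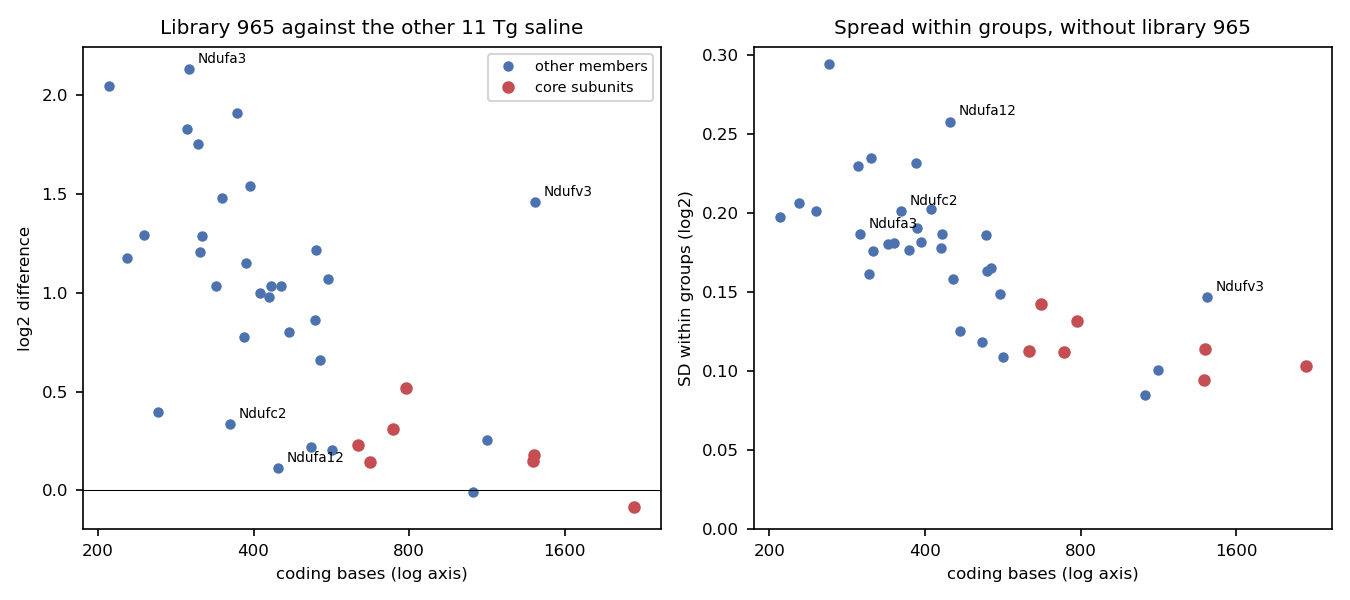
Left, the log2 difference of library 965 from the mean of the other 11 Tg saline hearts (y axis) against the number of coding bases (x axis, log scale) for the 38 members that are not pseudogenes. Right, the SD within groups on the log2 scale without library 965 (y axis) against the same x axis; core subunits lie between 0.09 and 0.14 and members under 600 coding bases between 0.11 and 0.29.

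Spread between mice differed with length as well, once library 965 was out. The SD of log2 levels within the groups had a median of 0.11 over the core subunits and of 0.18 over the members with under 600 coding bases. Of the 10 members with 600 or more coding bases, the core with Ndufa9, Ndufa10 and Ndufv3, all but Ndufv3 were lower in Tg under both treatments. Of the 28 shorter ones, 1 was lower and 1 higher under saline, or 10 lower without library 965, and 5 were lower under Ang II, or 14 without it. Of all genes, 20.2% were called lower and 20.4% higher under saline, and 16.4% lower under Ang II. Without library 965 the shares called lower were 19.4% and 16.9%. Medians of the 28 were -0.15 under saline without library 965 and -0.19 under Ang II, beside -0.26 and -0.23 for the 10. The difference between these length classes was not tested.

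Some members have copies that were counted as genes of their own, and whether reads were split between them was not tested. Ndufa12 and its processed copy Ndufa12-ps were counted side by side, and the copy held from 7.95% to 56.2% of their joint counts (median 35.0%). The SD within groups on the log2 scale was 0.25 for Ndufa12, 0.66 for the copy and 0.19 for their sum, so the sum varied less than either, and the level of Ndufa12 itself is uncertain. The sum also varied less than either for Ndufab1 (0.158 against 0.161 for the gene and 0.181 for the copy). For Ndufs6 it did so too (0.306 against 0.307 and 0.512), and both sums were close to the gene's own SD. In Ndufb4 and Ndufs5 the sum did not vary less than both. Ndufb4c held 15.9% to 20.9% of its joint counts with Ndufb4, and copies of Ndufab1, Ndufs5 and Ndufs6 held at most 6.52%, 1.59% and 1.48%. Of the members, 7 overlap another tested gene, 6 of them one on the opposite strand, including Ndufs3. Whether counting used strand is not given in the sources used here, so reads of such pairs cannot be told apart.

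Beyond the members, 8 of 15 complex I assembly factors tested were lower and 1 higher in Tg on saline, with a median log2 fold change of -0.18. Of all genes, 20.2% were called lower and 20.4% higher in that comparison. Ecsit, needed for assembly of the membrane arm, was lower by -0.27 ± 0.04 (edgeR adjusted p = 2.71e-06) and Foxred1, an assembly factor with a flavoprotein fold, by -0.22 ± 0.04 (edgeR adjusted p = 4.45e-05). Under Ang II 4 of 15 assembly factors were lower and 0 higher, against 16.4% of all genes called lower and 16.4% called higher. Of the 7 subunits encoded in mitochondrial DNA, 5 were lower on saline and 3 under Ang II, with medians of -0.29 and -0.19. Their transcript mt-Nd1 was lower by -0.42 ± 0.07 on saline (edgeR adjusted p = 1.3e-06) and by -0.25 ± 0.06 under Ang II (edgeR adjusted p = 0.00143). It also fell with Ang II in WT hearts, by -0.23 ± 0.06 (edgeR adjusted p = 0.0072).

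Subunits of complexes II to V gave 11 lower and 3 higher of 38 on saline, with a median of -0.01, and 14 lower and 1 higher without library 965, with a median of -0.14. Of all genes, 20.2% were called lower and 20.4% higher on saline, or 19.4% and 18.8% without library 965. Under Ang II 17 of these subunits were lower and 0 higher, or 20 lower without library 965, against 16.4% and 16.9% of all genes called lower. Uqcrc1, a core subunit of complex III, was lower by -0.32 ± 0.05 on saline (edgeR adjusted p = 7.24e-07). Among 11 tested regulators of nuclear mitochondrial genes, 2 were lower on saline, which is near the 20.2% of all genes called lower. They were Gabpa (-0.15 ± 0.04, edgeR adjusted p = 0.00531), the DNA-binding part of an ETS activator, and Perm1 (-0.16 ± 0.06, edgeR adjusted p = 0.0436), a muscle regulator of PGC-1 and ERR targets. None of the 11 was called between the genotypes under Ang II, where 0 were lower and 0 higher by edgeR.

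Markers of cardiomyocytes and other cells moved in the same comparisons. Over all genes, 20.2% were called lower and 20.4% higher on saline, and 16.4% lower and 16.4% higher under Ang II. Of 10 cardiomyocyte genes, 7 were lower in Tg on saline and 7 under Ang II, where 1 was higher. Their summed level lay between 16805 and 19930 scaled FPKM in WT saline and between 14532 and 16796 in Tg saline hearts, and between 15073 and 18274 in WT Ang II and 14087 and 17527 in Tg Ang II hearts. The median log2 fold change of these genes was -0.22 and -0.25, beside -0.20 to -0.30 and -0.12 to -0.28 for the core subunits. Fibroblast markers were higher in 8 of 8 on saline (summed level 127 to 179 in WT, 187 to 312 in Tg) and in 6 of 8 under Ang II (107 to 208 in WT, 138 to 283 in Tg). Macrophage markers were higher in 8 of 8 (97.4 to 126 and 150.2 to 424) and in 6 of 8 (81.1 to 230.3 and 115 to 244). Endothelial markers were lower in 8 of 8 in both comparisons (128 to 198 and 89.6 to 125 on saline, 108 to 186 and 94.9 to 143 under Ang II), and mural markers in 6 and 5 of 7, with 1 higher in each (151 to 199 and 103 to 136 on saline, 89.7 to 188 and 90.1 to 147 under Ang II). In bulk tissue, fewer cells of a type and less RNA per cell cannot be told apart, and the part of cell make-up in the members' changes was not tested. Of 7 adipocyte markers, Ucp1, Adipoq, Plin1, Lep and Cfd reached at most 0.882 scaled FPKM in any library. The other two were present in every library, Cidea at 13.2 to 25.1 and Fabp4, which endothelial cells also make, at 45.7 to 136. Cidea was not called in either comparison, and Fabp4 was lower in Tg on saline (log2 -0.29 ± 0.10, edgeR adjusted p = 0.0192) and under Ang II (-0.26 ± 0.09, edgeR adjusted p = 0.0281). The summed level of the 7 was 72.4 to 137 in WT saline, 62.6 to 131 in Tg saline, 98.3 to 155 in WT Ang II and 87.5 to 118 in Tg Ang II hearts. Of 4 atrial markers, Myl7, Sln and Myl4 reached at most 0.721. The fourth, Nppa, which stressed ventricle also expresses, ranged from 90.0 to 2942, and the summed level of the 4 had a median of 118 in WT saline, 481 in WT Ang II, 1010 in Tg saline and 1500 in Tg Ang II hearts. Nppa was higher in Tg in both comparisons, by log2 3.07 on saline and 1.54 under Ang II, and the part of either list in the members' changes was not tested.

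Scaling sets what counts as unchanged. With library size as the only correction, the median log2 fold change of all genes became 0.14 for Tg against WT on saline, 0.08 under Ang II and 0.06 for Ang II in WT. Over all genes 41.9% were then called higher and 7.9% lower on saline, and 7.97% lower under Ang II. On that scale 4 members were lower and 4 higher on saline, in place of 10 and 1, and the higher ones were Ndufa1, Ndufa2, Ndufa11 and Ndufb3. The 4 lower ones were core subunits, with Ndufs7, Ndufv1 and Ndufv2 among them, and Ndufs1, Ndufs3 and Ndufs8 were not called, at log2 fold changes of -0.06, -0.11 and -0.08. Under Ang II it called 8 lower and 0 higher, 6 of them core subunits, the exception being Ndufs1 at -0.03 (adjusted p = 0.516, edgeR). All 7 core subunits had negative fold changes in both comparisons under every alternative computed.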

How the data were processed

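RNA-seq of 50 left ventricles was analysed from 1 table with 2 columns per library. Poly(A) RNA was made into dUTP libraries and sequenced as paired ends, per the labels' protocols, and cutadapt 1.9, FastQC, HISAT2 2.0.4 and StringTie 1.3.4d are named in the submitters' processing notes. The counting tool, its strand setting and the genome build are not given in the sources used here. Of 35717 gene identifiers, 35599 were in GENCODE M21 (GRCm38), 91.6% of them with identical start and end. The counts are whole numbers deposited by the authors and were used as they are. The FPKM values, also deposited by the authors, are already divided by gene length and library size. That length is the authors' own and exceeds the coding length of Ndufs1, for example, with 8640 bases implied against 2181 coding, so levels were not compared between genes.

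Genes reaching 1 FPKM in 5 or more libraries entered the test, made with edgeR 4.0.16 (quasi-likelihood, median-of-ratios scaling, 1 mean for each of 8 groups by genotype, treatment and sex, sexes weighted equally), in R 4.3.3. SE is the log2 fold change divided by the root of the F statistic. In all, 6 comparisons were made. Counts were simulated for the saline comparison of genotypes over 11628 genes, of which 200 were changed. Of genes changed by 0.25 on the log2 scale 50.0% were recovered, 86.4% at 0.5 and 97.0% at 1, with 4 false calls. In the data 40.6% of genes were called in that comparison, so these rates need not carry over to it. Alternatives used TMM, no scaling, DESeq2 1.42.0, limma 3.58.1 on log2 values of the authors' FPKM after scaling (pseudocount 1 or 0.1), no filter, no sex term, runs of library numbers, and libraries left out. No 2 libraries agreed within sampling noise. No label says that libraries come from separate animals beyond their numbers, each of which occurs once, so p-values measure the spread between these samples.

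The members and lists were chosen with earlier results of these data known, so no p is adjusted over the members alone. Core subunits, called members of smallest p, and the largest changes are named in full, together with members that library 965 moves, whose choice followed their values. Coding length is that of the longest coding transcript in GENCODE M21, and 600 bases divided short from long. The values of 1 core subunit are not reported here; it is in the counts and medians.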

Additional observations from a re-analysis of the deposited data

Results flagged for a closer look

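Within each group of 1 genotype, treatment and sex (5 to 7 hearts), the highest or lowest heart was compared with the rest by Dixon's gap ratio. The 4 summaries (percent of counts in members and the medians of all, core and short members) in 8 groups made 32 such tests, of which chance flags about 1 in 20. In the Tg saline males, library 965 stood apart in 3 of them. Its median member lay 0.83 above the WT saline mean on the log2 scale, where the next heart of the group had 0.06 and the lowest -0.22. Its median over the 28 members with under 600 coding bases was 0.95, where the next had 0.09. The members took 0.722% of its counts, where the next had 0.565%. The median of the 7 core subunits did not stand apart there, nor did any other group in the 4 summaries. Member by member, 30 of 320 pairs of a member and a group had a heart standing apart, where 1 in 20 would be 16. Of the 30, 22 were library 965 on the high side and 4 were library 239, replicate 1 of the WT saline females. The members were measured in the same hearts, so the pairs are not independent tests and the 30 cannot be set against chance.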

How the results depend on the processing

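No paired analysis was possible because replicate numbers were given only in accession order and each library number of the labels occurs once. Among named members, no call changed its direction under any alternative. Leaving out 1 library at a time gave 10 to 20 members called for Tg against WT on saline, 12 to 23 under Ang II, 1 to 3 for Ang II in WT and 0 to 3 in Tg, and 0 and 1 throughout for the difference in response and between the sexes. All 7 core subunits were called in both comparisons of genotypes each time. The upper ends, 20 and 23, are without library 965, and other libraries gave up to 12 and 20. For Ang II in Tg, 3 members (Ndufa3, Ndufa5, Ndufb3) were called without library 160, and 1 each without libraries 158, 297, 327, 487, 489 or 528. Without libraries 965, 329 and 847 the saline count was 20. Unscaled counts gave 8 under Ang II, 1 for Ang II in WT and 0 between the sexes. DESeq2 gave 1 for Ang II in Tg, and dropping the filter gave 1 for Ang II in WT. TMM factors, limma on log2 values, runs of library numbers as a term and no sex term moved no count by over 1.5 times. Of 5 alternatives chosen after seeing the data, leaving out the pseudogenes changed no count. Within females, 6 members were called under Ang II and 1 for Ang II in WT. Within males these were 9 and 1, with 9 for Ang II in Tg, all lower, where 433 of 11628 genes were called lower. Without library 965 males gave 7 on saline, 19 under Ang II, 1 for Ang II in WT and 0 for Ang II in Tg. Females were not counted without that library. The short-mRNA shift as a covariate gave 33 and 31 for the genotypes and 17 and 8 for Ang II in WT and Tg, all lower. In that fit 886 of 11628 genes were called lower for Ang II in WT and 620 in Tg. The cause of these moves was not tested, except that tests within 1 sex use fewer libraries. Ndufa11 was not called higher on saline with no filter or with runs of library numbers as a term. Depth limited little: Ndufs6b, with a mean count of 30.9, is the exception.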
